A study of Rattus norvegicus with 20 samples.

Results

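The comparison described here set sprouting against non-sprouting cortical neurons of aged rats after stroke, in the cohort labelled day 21. Its members were the 10 arrays labelled day 21, replicates 1 to 5, out of the 20 arrays of the series, and they came from 5 of its 10 rats. All rats were 2 years old. Cholera toxin B, a tracer that neurons take up at axon endings and carry back to the cell body, was injected into the cortex beside the infarct first as the Alexa 488 form and later, at the same site, as the Alexa 647 form. The later injection followed after 21 days in this cohort and after 7 days in the other. Neurons were cut out by laser capture 7 days after the later tracer, about 300 per cell type. Day 21 and day 7 thus name the time of the later tracer and not that of capture. Each rat thus gave a pool labelled sprouting and a pool labelled non-sprouting, so both groups share the stroke, the age and the animal, and the labels name neither an uninjured group nor the tracer pattern that defined each pool. The RNA went through 2 rounds of T7 amplification. Both pools of a rat were hybridised together on 1 array with sprouting neurons in the red dye Cy5 and again on a dye-swap array. The 2 arrays of a rat were averaged to 1 log2 ratio of sprouting over non-sprouting signal per feature, so n was 5 animals. A positive ratio stands for a higher signal in sprouting neurons.

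Axonal sprouting is the growth of new branches from neurons that survived near an injury. Growing axons need membrane, cytoskeleton and protein synthesis, and they read guidance cues and growth inhibitors in matrix and myelin. Glial and vascular cells surround each captured neuron, so that their transcripts can enter a laser-captured pool. In such pools a lower value can come from fewer cells of a type or from less RNA per cell, and these cannot be told apart.

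After the filter on dim probes 31080 features were tested, 13733 of them with a gene name. No feature passed the adjusted threshold of 0.05 in limma (0%), and the smallest adjusted p was 0.919. Before adjustment 1484 features (4.77%) had p under 0.05 in limma, 578 higher (1.86%) and 906 lower (2.92%) in sprouting neurons. The higher ones made up 38.9% of these, 56.2% with Feature Extraction's own ratios, 49.5% without background correction, 28.9% with median centring in place of loess, 77.4% with a stricter filter (154 higher and 45 lower among 6125 features) and 55.9% with arrays entered singly and the animal as a replicate block (866 higher and 684 lower). Which direction held more of these features thus depended on the setting. The fit with arrays entered singly also held a dye term. A mean ratio above 0 was found for 15326 features (49.3%), and 1762 (5.67%) had 1 sign in all 5 animals, 755 of them above 0 and 1007 below. The 3172 features without a value in 1 or more animals could not count here. Independent random signs would all be alike in a share of 0.0625. Mean ratios were small, with 10 features above 0.5 and 22 below -0.5, of which 3 and 10 had 1 sign in the 5 animals. Half-widths of the 95% interval of a mean ratio had a median of 0.14. The genes named in the following had an adjusted p of 0.919 or higher in limma, and their values are descriptions of these 5 animals.

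The animals differed in the spread of their ratios. The SD of ratios over features was 0.131, 0.164, 0.173, 0.245 and 0.345 in replicates 1 to 5. Replicate 5 held 895 of the 1116 values beyond 1 in either direction (80.2%), 769 above 1 and 126 below -1. For these 895 features the mean of the other 4 animals had the sign of replicate 5 in 21.0%, against 44.7% over all features. Between the forward array and the turned dye-swap array of replicates 1 to 5, ratios correlated at 0.363, 0.360, 0.412, 0.053 and 0.870 over features, which are not independent replicates. The lowest was that of replicate 4, whose dye-swap array had 4088 outlier spots and 20.6% of probes well above background in the channel of sprouting neurons, against 35.6% to 83.3% on the other dye-swap arrays. Between animals the 10 correlations lay from -0.23 to 0.14 with a median of 0.05, and all 4 below 0 involved replicate 5. Turned arrays of different animals had a median correlation of 0.13 with the same dye orientation and of -0.12 with opposite orientation, and the mean over both arrays of a rat weights the orientations equally. Replicate 1 was scanned in 1 batch with 2 day 7 animals, replicates 2 and 3 in another and replicates 4 and 5 in one more, and with batch as a random block limma called 0 features and had 1508 at an unadjusted p under 0.05.

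**Figure D1:**
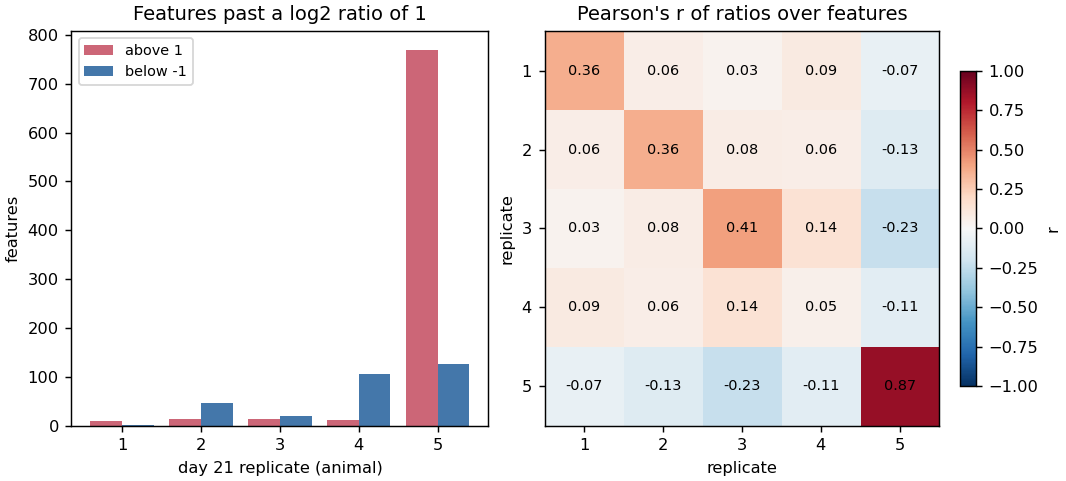
Spread and agreement of the 5 day 21 animals over the tested features. The bars on the left count features above 1 or below -1 on the log2 ratio scale in each animal, and replicate 5 stands at 769 and 126; the squares on the right give Pearson's r of the ratios between animals, with the r of forward against turned dye-swap ratios on the diagonal, where replicate 4 is lowest at 0.05 and replicate 5 highest at 0.87.

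Genes with 1 sign in the 5 animals and on both dye orientations, well above background in both channels on at least 8 of the 10 arrays and saturated on at most 2, numbered 364, 187 above 0 and 177 below. The 10 lowest and 10 highest of them by mean ratio are described here, so their common sign was part of the choice. The lowest ratio was that of Tpm2, a tropomyosin that binds actin in smooth and skeletal muscle, with -0.63, -2.52, -0.33, -0.32 and -0.40 in replicates 1 to 5. Replicate 2 stood apart from the other 4 animals. The mean was -0.84 ± 0.95 (SD, n = 5), with a 95% interval from -1.82 to 0.15 in limma's fit, and without replicate 2 it was -0.42. The level of Tpm2 in non-sprouting neurons was 11.28 on the log2 signal scale in replicate 2, against 7.11 to 8.58 in the other animals. Its level in sprouting neurons was 8.76 in replicate 2 and 6.72 to 7.95 in the others, so replicate 2 was highest in both pools. Both further probes of Tpm2 were lowest in replicate 2 as well, at -1.86 and -0.94, with means of -0.62 and -0.18.

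Mgp and Mustn1 were also lowest in replicate 2. Mgp, which encodes the matrix Gla protein that keeps vessel walls from calcifying, had -0.60, -1.87, -0.37, -0.41 and -0.02 in replicates 1 to 5, a mean of -0.65 ± 0.71 (SD, n = 5). Mustn1, first described in muscle and bone, had -0.46, -1.57, -0.59, -0.10 and -0.23, a mean of -0.59 ± 0.58 (SD, n = 5). Without replicate 2 the mean was -0.35 for Mgp and -0.34 for Mustn1. The 95% interval over the 5 animals ran from -1.84 to 0.54 for Mgp and from -1.05 to -0.13 for Mustn1. Tagln, a marker of smooth muscle and pericytes chosen after its values were seen, was lowest in the same animal, at -1.86 against -0.74 to -0.03 in the others, with a mean of -0.57 ± 0.78 (SD, n = 5) or -0.24 without replicate 2. These genes thus shared their lowest animal, though Tagln was picked with that value known. Dixon's test for a single extreme animal, given below, flagged replicate 2 for Tpm2 alone among them. Feature Extraction's own ratios gave Tagln a mean of -1.01. Markers of endothelium and pericytes had a list median of -0.14 in replicate 2 and of -0.15 in replicate 3, where these genes did not stand apart, and the part of vessel cells in these ratios was not tested.

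Septin7 and Taok3 had their lowest ratios in replicate 5, which stood apart for both. Septin7, a GTPase that forms filaments under the membrane, had -0.41, -0.10, -0.54, -0.37 and -2.45 in replicates 1 to 5, a mean of -0.78 ± 0.95 (SD, n = 5), and -0.36 without replicate 5. Its non-sprouting level was 14.63 in replicate 5, against 11.84 to 12.40 elsewhere, and its sprouting level lay between 11.63 and 12.18 in the 5 animals. Replicate 5 stood apart in the non-sprouting pool. A dimmer probe of Septin7 had -0.10 ± 0.35 (SD, n = 5) and was above 0, at 0.49, in replicate 5. Taok3, a protein kinase upstream of stress-activated MAP kinases, had -1.99 in replicate 5 against -0.30 to -0.05 elsewhere. Its mean was -0.53 ± 0.82 (SD, n = 5), or -0.16 without replicate 5, and a dimmer probe had a mean of 0.07 in 4 animals. With array weights the means were -0.47 for Septin7 and -0.28 for Taok3. In the fit as reported the 95% interval ran from -1.44 to -0.11 for Septin7 and from -1.09 to 0.03 for Taok3.

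Atrx and Neto2 had ratios below 0 in every animal. Atrx, a chromatin remodeller, had -0.55, -0.27, -0.42, -0.56 and -0.87 in replicates 1 to 5. Replicate 5 was lowest and replicate 2 highest. The mean was -0.53 ± 0.22 (SD, n = 5), a level 1.45 times lower in sprouting neurons, with a 95% interval from -0.70 to -0.37. In limma's fit across all features the unadjusted p of Atrx was 3.09e-05, the smallest of all, with an adjusted p of 0.919. With the 20 arrays entered singly and the animal as a replicate block, the adjusted p of Atrx was 0.00048 in limma. That fit also held a dye term and used 1 correlation within animals, 0.50, for all features. Its p thus does not rest on the spread between animals alone. Its levels were 10.25 to 10.93 in sprouting and 10.70 to 11.80 in non-sprouting neurons on the log2 signal scale, so the levels of the pools overlapped between animals although each pair had the same order. Of the other Atrx probes, one had -0.40 ± 0.31 (SD, n = 5) and was below 0 in all animals. The other Atrx probe had -0.06 ± 0.39 (SD, n = 5), above 0 in replicates 1 and 2 and below 0 in the rest. Neto2, which associates with kainate receptors as an accessory subunit, had -0.32, -0.32, -0.59, -0.40 and -0.83, a mean of -0.49 ± 0.22 (SD, n = 5) with a 95% interval from -0.65 to -0.33. Median centring of the arrays in place of loess gave Neto2 -0.67 and an adjusted p of 0.02 in limma. Only 1 probe of the array carried the name Neto2.

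The other genes at the low end were signalling genes and 1 uncharacterised locus. Inpp4b, a phosphatase of inositol lipids, had -0.41, -0.54, -0.33, -0.87 and -0.41 in replicates 1 to 5, a mean of -0.51 ± 0.21 (SD, n = 5). A second Inpp4b probe had -0.08 ± 0.13 (SD, n = 5). Smad1, which carries signals of bone morphogenetic protein receptors to the nucleus, had -0.25, -0.11, -0.29, -0.66 and -1.12, a mean of -0.48 ± 0.41 (SD, n = 5). Both were below 0 in 5 animals, Inpp4b lowest in replicate 4 and Smad1 in replicate 5. MGC94555 had a mean of -0.49 ± 0.40 (SD, n = 5), and -0.32 without replicate 5, where it was lowest at -1.16. Array weights gave Smad1 -0.30, and Inpp4b had -0.32 without background correction.

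At the high end Plac8, a small cysteine-rich protein, had 0.89, 0.05, 1.14, 0.34 and 0.29 in replicates 1 to 5, a mean of 0.54 ± 0.46 (SD, n = 5) with a 95% interval from -0.09 to 1.17. Fabp7, a fatty acid binding protein of radial glia and astrocytes, had 0.53, 0.35, 0.19, 0.80 and 0.78, a mean of 0.53 ± 0.27 (SD, n = 5), and was above 0 on 10 of the 10 arrays. Its 95% interval ran from -0.06 to 1.12 in limma's fit, which pools the spread of both days. Id4, which blocks the DNA binding of helix-loop-helix factors and is also a marker of astrocytes, had 0.27, 0.43, 0.49, 0.11 and 0.67, a mean of 0.39 ± 0.21 (SD, n = 5) with a 95% interval from 0.17 to 0.61. Its levels were 10.82 to 11.30 in sprouting and 10.49 to 10.87 in non-sprouting neurons. A second Id4 probe had 0.24 ± 0.22 (SD, n = 5) and was below 0, at -0.06, in replicate 4. Replicate 4 was thus the lowest animal for both Id4 probes. With median centring in place of loess the means were 0.30 for Fabp7 and 0.16 for Id4, and with Feature Extraction's own ratios Plac8 had 1.08.

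Mcub, Crot and Adgrb3 were also among the 10 highest. Mcub, a subunit that dampens the mitochondrial calcium uniporter, had 0.30, 0.56, 0.33, 0.76 and 0.37 in replicates 1 to 5, a mean of 0.46 ± 0.20 (SD, n = 5). Crot, a peroxisomal enzyme that links fatty acids to carnitine, had 1.06 in replicate 5 against 0.06 to 0.35 elsewhere. Its mean was 0.34 ± 0.42 (SD, n = 5), or 0.16 without replicate 5. Adgrb3, an adhesion receptor of synapses, was likewise set by replicate 5, at 1.34 against 0.02 to 0.33, with a mean of 0.36 ± 0.56 (SD, n = 5) or 0.12 without that animal. Other Adgrb3 probes had means of 0.05 and 0.02, the first of them with 0.93 in replicate 5 and values below 0 in the rest. The 95% intervals ran from -0.11 to 1.03 for Mcub, from 0.05 to 0.62 for Crot and from -0.04 to 0.77 for Adgrb3. Median centring gave Crot 0.10 and Adgrb3 0.13, array weights gave them 0.17 and 0.14, and Feature Extraction's own ratios gave Mcub 0.86.

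Of the remaining high genes Egr2, an activity-induced transcription factor, had 0.40 ± 0.24 (SD, n = 5) and 0.17 to 0.68 over the animals. Rtp4, an interferon-induced gene, had 0.38 ± 0.22 (SD, n = 5) and 0.14 to 0.70. Pcsk6, a convertase that activates growth factor precursors, had 0.37 ± 0.24 (SD, n = 5) and 0.05 to 0.60. Enkur had 0.35 ± 0.16 (SD, n = 5) and 0.14 to 0.55. Each of these genes was above 0 on 10 of the 10 arrays. In limma's fit the 95% interval ran from -0.61 to 1.42 for Egr2 and from -0.02 to 0.78 for Rtp4. It ran from -0.006 to 0.70 for Enkur and from 0.04 to 0.71 for Pcsk6. With median centring the means were smaller, 0.19 for Egr2, 0.19 for Rtp4, 0.15 for Pcsk6 and 0.16 for Enkur, and Feature Extraction's own ratios gave Rtp4 0.89. At day 7 Mcub (0.56) and Egr2 (0.47) also had mean ratios above 0, and their day 21 minus day 7 differences were -0.09 and -0.07.

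**Figure D2:**
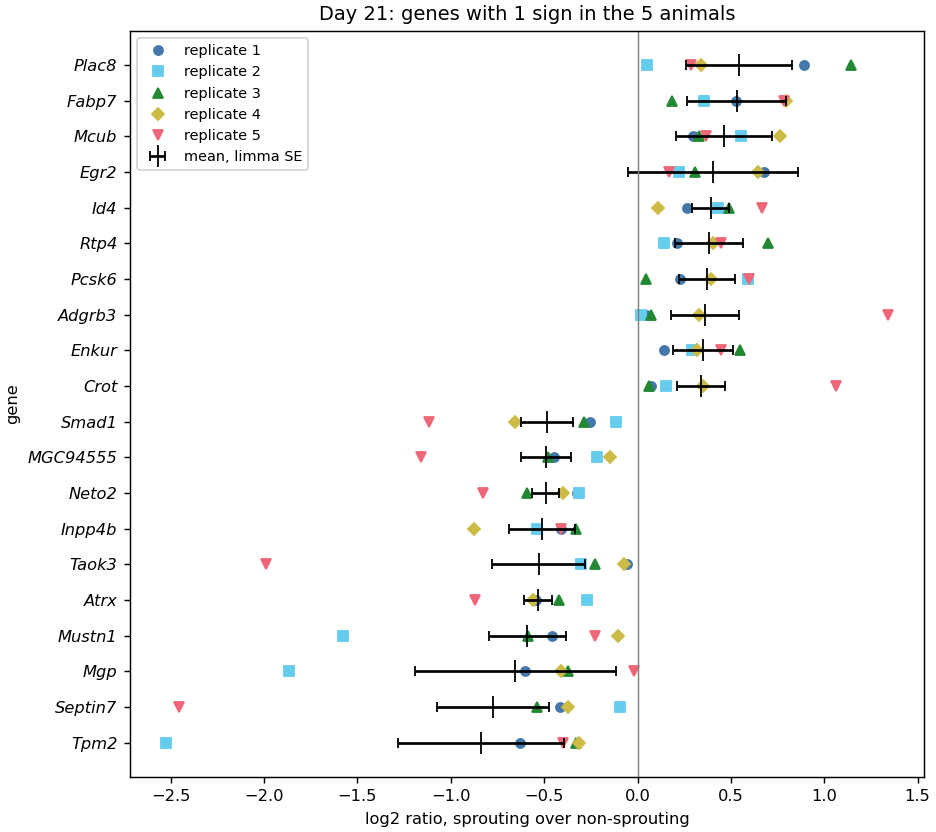
Log2 ratios of sprouting over non-sprouting signal for the 20 genes at both ends of the ranking, with 1 symbol per day 21 animal and the mean with its limma SE in black. Tpm2, Mgp and Mustn1 have their lowest point in replicate 2, Septin7 and Taok3 theirs in replicate 5, and the points of Atrx and Neto2 all lie below 0 and those of Id4 above.

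The 10 named genes of smallest p held Atrx and Neto2, described above, Cort, described below, and 7 others. G0s2, which inhibits the lipase that empties lipid droplets, had 0.15, 0.27, 0.42, 0.22 and 0.49 in replicates 1 to 5, a mean of 0.31 ± 0.14 (SD, n = 5). Abcc2, an export pump of the multidrug resistance family, had 0.29 ± 0.18 (SD, n = 5) and 0.12 to 0.55 over the animals. Both were above 0 on 10 of the 10 arrays. Pbx2, a homeodomain factor, had -0.21 ± 0.08 (SD, n = 5), Lrg1, a secreted glycoprotein, -0.20 ± 0.05 (SD, n = 5), and Ccdc171, a coiled-coil protein, -0.21 ± 0.08 (SD, n = 5). Nat10, an acetyltransferase of ribosomal and other RNA, had -0.26 ± 0.16 (SD, n = 5) and was below 0 in the 5 animals, at -0.50 to -0.05. Zbtb38, a zinc finger protein that binds methylated DNA, had -0.25, -0.29, -0.65 and -0.66 in replicates 1, 2, 3 and 5, and replicate 4 was dropped for an outlier spot. The probes of Ccdc171, Zbtb38, Nat10 and Lrg1 were well above background in the channel of sprouting neurons on only 5 to 7 of the 10 arrays. Median centring gave G0s2 0.12, Abcc2 0.11, Lrg1 -0.13 and Pbx2 -0.38. Without background correction Nat10 had -0.13 and Lrg1 -0.058, and Feature Extraction's own ratios gave Ccdc171 -0.47, Zbtb38 -0.86 and Lrg1 -0.30.

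**Figure D3:**
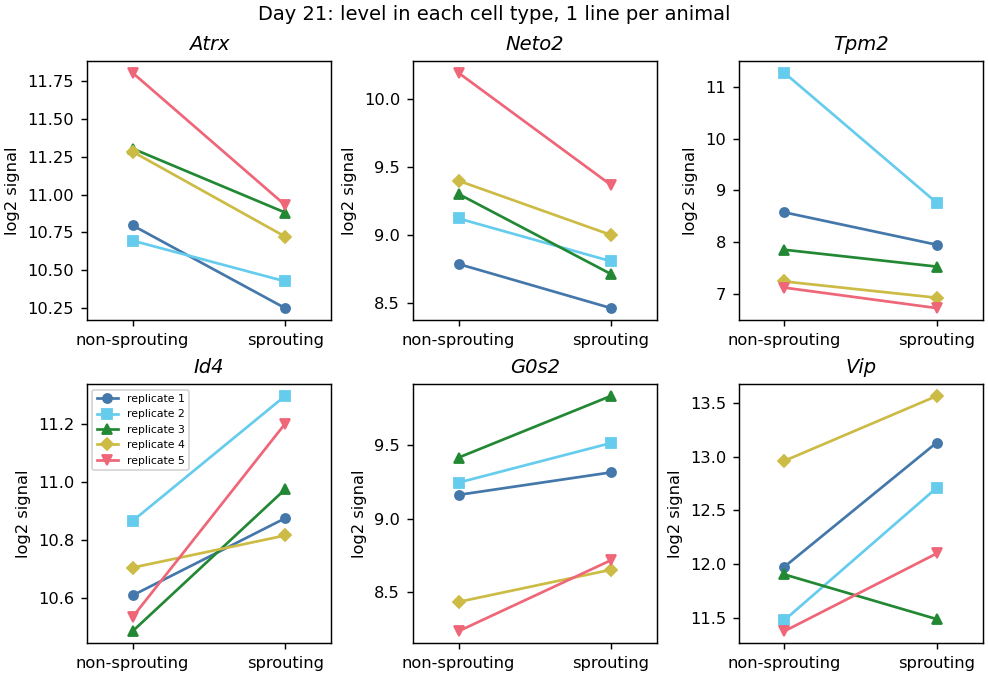
Levels of 6 genes in the non-sprouting and the sprouting pool of each day 21 animal, as log2 signal after scaling between arrays, with 1 line per animal; the vertical scale differs between panels. All 5 lines fall for Atrx, Neto2 and Tpm2 and climb for Id4 and G0s2, and for Vip replicate 3 runs against the other 4.

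Neuropeptide genes of interneurons, the local inhibitory cells of the cortex, differed widely between animals. Cort, which encodes cortistatin, was among the 10 named genes of smallest p and had -0.72, 0.06, -0.87, -1.13 and -0.71 in replicates 1 to 5, a mean of -0.67 ± 0.45 (SD, n = 5). Vip, which encodes vasoactive intestinal peptide, had 1.16, 1.23, -0.42, 0.60 and 0.72, a mean of 0.66 ± 0.66 (SD, n = 5). Calb2, the calcium-binding protein calretinin, had 1.33, 0.57, 1.12, -0.17 and -0.27, a mean of 0.52 ± 0.73 (SD, n = 5) or 0.31 without replicate 1. Cort was below 0 in 4 animals, Vip above 0 in 4 and Calb2 above 0 in 3. Npy, which encodes neuropeptide Y and was chosen after its values were seen, had 0.22, 1.58, -1.79, 1.44 and -1.49, a mean of -0.01 ± 1.59 (SD, n = 5) that ranged from -0.40 to 0.44 with 1 animal left out. Sst, which encodes somatostatin and was chosen in the same way, had -0.35 ± 0.48 (SD, n = 5) with -0.80 to 0.23. Reln, a secreted matrix protein of some interneurons, had -0.39 ± 0.51 (SD, n = 5), lowest in replicate 4 at -1.20 and -0.19 without it, and a second probe had -0.32 ± 0.32 with -0.87 in that animal. Median centring gave Vip 0.43, Calb2 0.33, Sst -0.58 and Reln -0.62, and array weights gave Calb2 0.86. Of 20 tested interneuron markers 9 had a mean ratio above 0 and 11 below, with a median of -0.019, which lay between -0.070 (without replicate 2) and 0.00023 (without replicate 4) with 1 animal left out. The summed signal of the list was 52544 to 83386 in sprouting and 57614 to 72487 in non-sprouting neurons, and the ratio of the sums was above 0 on the log2 scale in 3 animals and below in replicates 3 and 5.

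The captured cell type was checked against neuron markers. The list mixed markers of cortical glutamatergic neurons with markers of neurons in general, so it does not check glutamatergic identity by itself. All 16 of these markers on the array were tested, 10 of them well above background on all 10 arrays in sprouting and 15 in non-sprouting neurons. They had a mean ratio above 0 in 5 genes and below in 11, with a median of -0.094 beside -0.001 over all features. Medians in replicates 1 to 5 were -0.06, -0.12, 0.05, -0.06 and -0.40, and without replicate 5 the median was -0.028. Replicate 5 was lowest and replicate 3 alone was above 0. The summed signal of 15 of these markers was 66471 to 77332 in sprouting and 73769 to 85718 in non-sprouting neurons, and it was lower in the sprouting pool of each of the 5 animals, with log2 ratios of -0.23 to -0.06.

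Both named neurofilament genes, which build the axonal cytoskeleton, had ratios below 0. Nefl had -0.16, -0.18, -0.20, -0.14 and -1.11 in replicates 1 to 5, a mean of -0.36 ± 0.42 (SD, n = 5) or -0.17 without replicate 5. Nefm had -0.23, -0.15, -1.06, -0.24 and -0.40, a mean of -0.42 ± 0.37 (SD, n = 5) or -0.26 without replicate 3. Both were below 0 in the 5 animals, with the animal that stood apart differing between them. Eno2, the neuronal form of enolase, had -0.21 ± 0.30 (SD, n = 5) and -0.08 without replicate 5. Snap25 and Syt1, which serve vesicle release and were chosen after their values were seen, had opposite signs in replicate 5, Snap25 at 1.94 against -0.56 to -0.13 in the other animals and Syt1 at -2.03 against -0.36 to 0.38. Their means were 0.12 ± 1.03 and -0.45 ± 0.92 (SD, n = 5), or -0.33 and -0.06 without replicate 5. Median centring gave Nefl -0.54, Nefm -0.64 and Eno2 -0.43. Other Syt1 probes had -0.36 and 0.45 in replicate 5. Bcl11b, a transcription factor of deep-layer projection neurons, had -0.34, -0.36, -0.02 and -1.01 in replicates 1, 2, 3 and 5, a mean of -0.44 ± 0.42 over these 4 or -0.24 without replicate 5, and a dimmer probe had a mean of 0.03. Deep-layer markers had 7 of 18 genes above 0 and a median of -0.032, from -0.075 to 0.016 with 1 animal left out, lowest without replicate 3 and highest without replicate 5. Upper-layer markers had 8 of 15 and a median of 0.0079, from -0.016 to 0.025, lowest without replicate 4 and highest without replicate 2.

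Well above background in both channels on at least 8 of the 10 arrays were 15 of 19 astrocyte markers, 20 of 23 oligodendrocyte markers, 21 of 28 microglial markers, 20 of 26 vascular markers and 5 of 13 blood cell markers. All 19 astrocyte markers were tested, and 17 had a mean ratio above 0 and 2 below, 3 of them higher and 0 lower at an unadjusted p under 0.05. Over all features 49.3% were above 0, and 1.86% were higher and 2.92% lower at that p in limma. The list median was 0.057, and -0.035 with 5 of 19 above 0 when arrays were median-centred in place of loess. It was 0.036 without replicate 4, 0.090 without replicate 1 and 0.094 without replicate 5. List medians in replicates 1 to 5 were 0.02, 0.06, 0.06, 0.17 and 0.09, all above 0. The summed signal of 18 astrocyte markers was 48002 to 50834 in sprouting and 39966 to 47627 in non-sprouting neurons, so the ranges did not overlap. These levels were taken after loess.

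Gja1, the gap junction protein connexin 43, had 0.25, 0.12, 0.05, 0.23 and 0.35 in replicates 1 to 5, a mean of 0.20 ± 0.12 (SD, n = 5), or -0.028 with median centring, and a dim second probe had -0.01 in 4 animals. Cldn10, a claudin of astrocytes, had 0.27 ± 0.35 (SD, n = 5), 0.14 without replicate 5 and 0.067 with median centring. Glul, glutamine synthetase, chosen after its values were seen, had 0.24 ± 0.28 (SD, n = 5), 0.15 without replicate 5 and 0.017 with median centring, and of 2 further probes one had 0.27 and the other -0.06. Fabp7 and Id4, among the highest genes above, are also expressed by astrocytes, and the part of astrocyte RNA in their ratios was not tested.

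Microglial and vascular markers had list medians below 0 with loess and with median centring, and just above 0 with the stricter filter. Of 28 tested markers of microglia and macrophages 8 had a mean ratio above 0 and 20 below, with a median of -0.037, and the list median was below 0 in each of the 5 animals, from -0.07 to -0.004. At an unadjusted p under 0.05 in limma 1 was higher (Tmem119) and 1 lower (C1qa), beside 1.86% higher and 2.92% lower of all features. Median centring gave -0.167 with 7 above 0, beside the -0.035 of the astrocyte list, and the stricter filter 0.0077 with 5 of 9 genes above 0. Over all features the median was -0.028 with median centring and 0.040 with the stricter filter. With that filter 66.9% of all features were above 0. C1qa, a chain of the complement component that tags synapses for removal, had -0.21, -0.11, -0.26, -0.46 and -0.75 in replicates 1 to 5, a mean of -0.36 ± 0.25 (SD, n = 5). Its second probe had -0.21 ± 0.13 (SD, n = 5), and both C1qa probes were below 0 in every animal. C1qb, another chain of the same complex, had -0.22 ± 0.18 (SD, n = 5) or -0.15 without replicate 5. Median centring gave C1qa -0.57 and C1qb -0.45. Trem2, a lipid receptor of microglia chosen after its values were seen, had -0.27, -0.09, -0.51, -0.92 and -0.60, a mean of -0.48 ± 0.32 (SD, n = 5). Summed microglial signal was 26289 to 33111 in sprouting and 27436 to 34949 in non-sprouting neurons, ranges that overlapped.

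Of 26 tested markers of endothelium and pericytes 6 had a mean ratio above 0 and 20 below, with a median of -0.040. Medians in replicates 1 to 5 were -0.03, -0.14, -0.15, -0.09 and 0.04, and the median was -0.154 without replicate 5 and -0.022 without replicate 4, where 12 of 26 were above 0. With median centring it was -0.231, and the stricter filter left 2 genes with a median of 0.0031. Vwf, the endothelial clotting protein von Willebrand factor, had -0.29, -0.50, -0.17, -0.39 and -0.12, a mean of -0.29 ± 0.16 (SD, n = 5). A second Vwf probe had 0.05 ± 0.25 (SD, n = 5). Kdr, a receptor of vascular endothelial growth factor, had -0.27 ± 0.15 (SD, n = 4, with replicate 4 dropped). Median centring gave Kdr -0.50, and Vwf had -0.17 without background correction. Of 23 oligodendrocyte markers 14 were above 0, with a median of 0.046 over genes, 0.012 without replicate 2, 0.013 without replicate 5 and -0.067 with median centring, and medians of -0.10 to 0.09 over animals. Pdgfra, a marker of oligodendrocyte precursors, had 0.33, 0.69, -0.10, 0.89 and 0.61, a mean of 0.48 ± 0.38 (SD, n = 5) or 0.26 with median centring.

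Blood cell markers had 6 of 13 tested genes above 0 and a median of -0.0098, 0.0016 without replicate 2 and 0.049 with median centring. Hbb-b1, which encodes a beta globin, had -0.66, -0.44, -0.22, 1.77 and 0.58 in replicates 1 to 5, a mean of 0.21 ± 0.99 (SD, n = 5) that ranged from -0.18 to 0.42 with 1 animal left out, the lowest without replicate 4 and the highest without replicate 1. It was 0.37 with saturated spots left out. The summed signal of the list lay between 10185 and 44385 in sprouting and between 8402 and 44011 in non-sprouting neurons. The list's summed signal was higher in the sprouting pool in replicates 4 and 5 and lower in the other 3 animals.

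**Figure D4:**
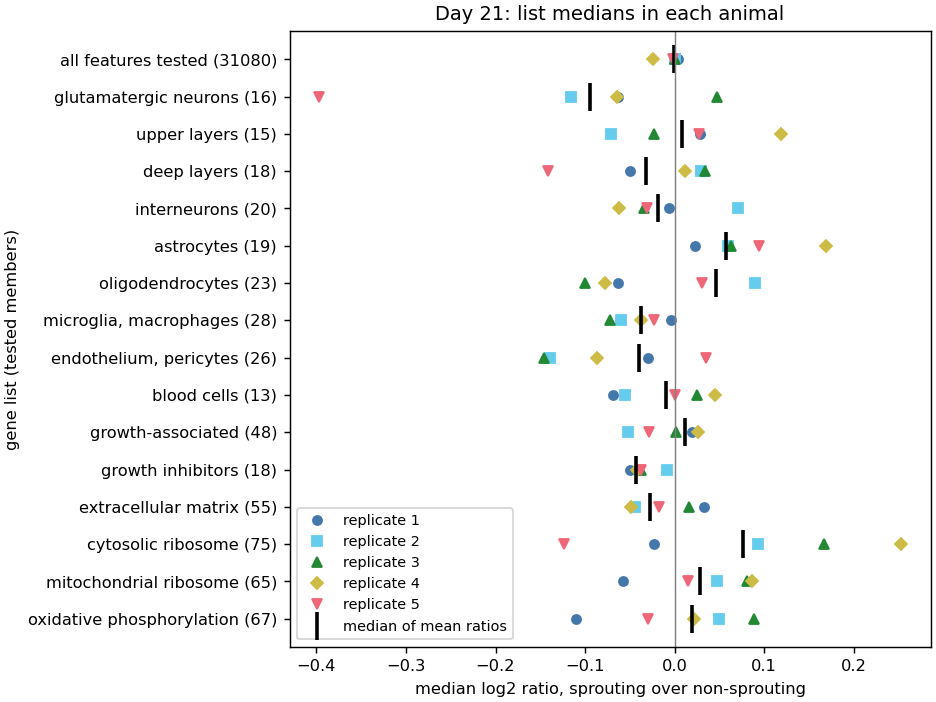
Median log2 ratio of sprouting over non-sprouting signal for 16 sets of genes, with 1 symbol per day 21 animal and a black bar for the median of the genes' mean ratios; the number of tested members stands after each name. The 5 animal medians of the astrocyte markers lie above 0, from 0.02 to 0.17, and those of the growth inhibitors and of the microglial markers lie below 0. The set named glutamatergic neurons also holds markers of neurons in general.

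The lists of growth genes showed no common direction. Of 48 tested growth-associated genes 27 had a mean ratio above 0, 5 were higher and 1 lower at an unadjusted p under 0.05, and the median was 0.012, from -0.00062 (without replicate 1) to 0.029 (without replicate 2) with 1 animal left out and -0.128 with median centring. Of all features 49.3% were above 0, and 1.86% were higher and 2.92% lower at that p in limma. Smad1, described above with a mean of -0.48, was the 1 lower member and had the smallest p of the list. Gap43, the growth cone protein that is the standard marker of regrowing axons, had 0.32, 0.08, 0.19, 0.16 and 0.14 in replicates 1 to 5, a mean of 0.18 ± 0.09 (SD, n = 5) with a 95% interval from 0.03 to 0.33. It was above 0 in every animal, its spot was saturated on 3 of the 10 arrays, and with median centring the ratio was -0.045. Stmn1, which destabilises microtubules in growth cones, had 0.11 ± 0.07 (SD, n = 5), or -0.12 with median centring, and a second probe had 0.16 ± 0.22 (SD, n = 5). Of 18 genes of growth inhibitors and their receptors 6 were above 0 and 12 below, with a median of -0.043 and list medians of -0.05 to -0.01 in the 5 animals, but -0.001 with 9 above 0 on dye-swap arrays alone, -0.134 with median centring, -0.024 without replicate 1 and 0.023 over the 7 genes that passed a stricter filter. Ptprs, a receptor of chondroitin sulfate proteoglycans, had -0.24 ± 0.46 (SD, n = 5) or -0.08 without replicate 5. Rock2, the kinase that relays inhibitory signals to actin, had -0.11 ± 0.20 (SD, n = 5), -0.05 without replicate 3 and -0.18 without replicate 5. Median centring gave Ptprs -0.37 and Rock2 -0.32. None of the 18 had an unadjusted p under 0.05 in limma, against 4.77% of all features.

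Synaptic and channel genes are given as lists and as single genes. Above 0 were 21 of 46 vesicle genes, 21 of 46 glutamate receptor genes and 12 of 20 genes of the GABA system. Of channel genes 22 of 51 for potassium and 10 of 24 for sodium and calcium were above 0, beside 49.3% of all features. Medians of these lists lay between -0.032 and 0.025. Pclo, which encodes the active zone scaffold piccolo, had -0.14, -0.34, -0.28, -0.78 and -0.83 in replicates 1 to 5, a mean of -0.47 ± 0.31 (SD, n = 5). Of 20 tested active zone genes 7 were above 0 and 13 below, with a median of -0.010, or 0.0023 without replicate 5, and Pclo alone had an unadjusted p under 0.05. Such a p in limma was found for 4.77% of all features. Kcns1, a modifying subunit of potassium channels, had -0.30 ± 0.18 (SD, n = 5). Scn3a, a sodium channel prominent in development, had 0.31, 0.05, 0.35, 0.40 and 0.07, a mean of 0.23 ± 0.16 (SD, n = 5). Scn4b, a sodium channel beta subunit, had -0.15, -0.17, -0.72, -0.48 and -0.37, a mean of -0.38 ± 0.23 (SD, n = 5), and its day 7 ratio was -0.41. A dimmer Scn4b probe had 0.05 ± 0.08 (SD, n = 5). Median centring gave Scn3a 0.0097 and Scn4b -0.61, array weights gave Pclo -0.31, and Kcns1 had -0.15 without background correction.

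Signalling genes were mixed as well. Of 55 tested cytokine and chemokine genes 27 were above 0, 4 were higher and 2 lower at an unadjusted p under 0.05. The shares over all features were 49.3% above 0, 1.86% higher and 2.92% lower at that p in limma. Cxcl12, a chemokine that guides migrating cells and axons, had 0.12, -0.09, 0.80, 0.21 and 0.94 in replicates 1 to 5, a mean of 0.40 ± 0.45 (SD, n = 5) 0.26 without replicate 5 and 0.16 with median centring. Vcam1, an adhesion molecule of endothelium and astrocytes, had 0.21 ± 0.16 (SD, n = 5) and was above 0 on 10 of the 10 arrays, but -0.023 with median centring. Gadd45b, an activity- and stress-induced gene, had -0.50, -0.02, -0.19, -0.20 and -0.51, a mean of -0.29 ± 0.21 (SD, n = 5) or -0.44 with median centring. Irs1, an adaptor of insulin and insulin-like growth factor receptors, had -0.15 ± 0.10 (SD, n = 5), with -0.27 on the dye-swap and -0.03 on the forward orientation and -0.026 with median centring, and its probe was well above background in the sprouting channel on 2 of the 10 arrays.

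Ribosomal protein genes had a larger share above 0 than all features with loess, and most were below 0 with median centring. Of 75 tested genes of the cytosolic ribosome 67 were above 0 and 8 below, with a median of 0.076, but 3 were above and 72 below 0 with a median of -0.14 when arrays were median-centred in place of loess. Medians in replicates 1 to 5 were -0.02, 0.09, 0.17, 0.25 and -0.12. An unadjusted p under 0.05 in limma was found for 2 of the 75 genes and for 4.77% of all features. The animals lay on both sides of 0, and the median was 0.039 without replicate 4 and 0.126 without replicate 5. These genes are bright, and among the 6125 features well above background in both channels on all 10 arrays 66.9% had a mean ratio above 0. Rpl30 had 0.19 ± 0.13 (SD, n = 5) and Rps26 0.17 ± 0.20 (SD, n = 5), or -0.037 and -0.054 with median centring. Of 65 genes of the mitochondrial ribosome 42 were above 0, with a median of 0.029, from 0.010 (without replicate 3) to 0.057 (without replicate 1) with 1 animal left out, and 7 were above 0 with a median of -0.18 with median centring. Mrps35 had 0.06, 0.13, 0.40, 0.22 and 0.34, a mean of 0.23 ± 0.14 (SD, n = 5), and Mrpl32 0.23 ± 0.22 (SD, n = 5), or 0.0049 and 0.0011 with median centring. Tpt1, which encodes a translationally controlled growth protein, had 0.18 ± 0.11 (SD, n = 5) with its spot saturated on 3 of the 10 arrays, 0.062 with saturated spots left out and -0.046 with median centring, and its further probes both had 0.14.

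For 2630 genes 2 or more probes were tested, which gave a check within the same samples. The 2 brightest probes of a gene had the same sign of the mean ratio in 57.7% of genes, and their correlation across genes was 0.28. The share was 50.2%, 57.5% and 65.5% in the dimmest, middle and brightest of 3 equal groups, ranked by the dimmer probe. Agreement thus went with brightness. Where the brightest probe had a ratio past 0.3 in either direction, 37 of 55 genes had a second probe of the same sign (67.3%), and 27 of 35 (77.1%) where both probes were above background on at least 8 arrays. Probes with the same transcript accession shared the sign in 58.8% of genes, and probes with different accessions in 50.6%. In single animals the correlation between the probes was 0.29, 0.38, 0.33, 0.22 and 0.34 in replicates 1 to 5, lowest in replicate 4.

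**Figure D5:**
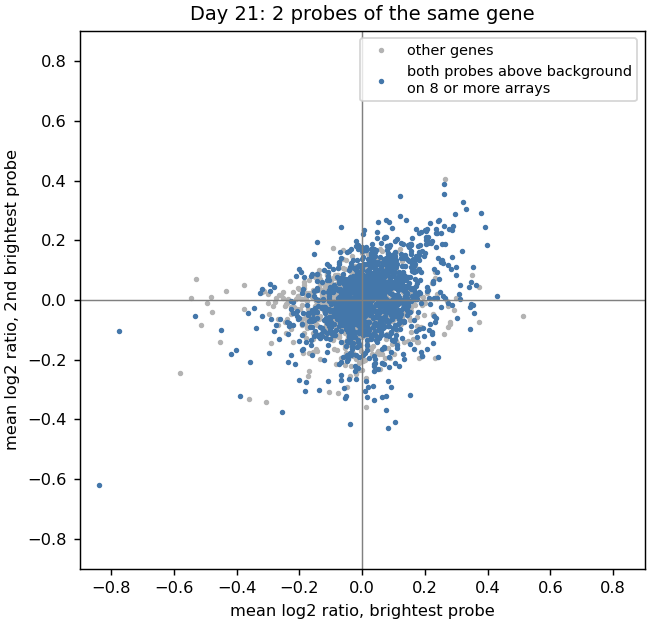
Mean log2 ratio at day 21 of the brightest (horizontal axis) and second brightest probe (vertical axis) of 2630 genes, 1 point per gene, with genes whose probes were both above background on at least 8 of the 10 arrays in both channels in blue. The points form a cloud around 0 with a correlation of 0.28, and 57.7% of them lie in the quadrants of equal sign.

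Only 9 genes had 1 sign in the 5 animals on every tested probe. C1qa, described above, was the first of them by size of the mean over probes. Fth1, the heavy chain of the iron store ferritin, had 0.05, 0.15, 0.16, 0.32 and 0.50 in replicates 1 to 5 on one probe and 0.04, 0.15, 0.14, 0.35 and 0.50 on the other. Plaat3, a phospholipase, had 0.02, 0.23, 0.22, 0.30 and 0.11 on one and 0.01, 0.23, 0.23, 0.30 and 0.14 on the other. For both genes the probes differed by less than the animals did, and with median centring the brighter probes had 0.0055 for Fth1 and -0.051 for Plaat3. The remaining genes were Stmn1, described above, Prp2 (-0.19 and -0.12), Prpf40b, a splicing factor (-0.19 and -0.08), Manf, a factor of the endoplasmic reticulum stress response (-0.13 and -0.10), Slc16a6, a transporter of the monocarboxylate family (-0.11 and -0.08), and Cmtm3 (-0.05 and -0.10), each given as the mean ratios of its 2 probes. Without replicate 4 the first probe of Prp2 had -0.06, and without replicate 5 those of Prpf40b, Manf and Cmtm3 had -0.12, -0.08 and -0.02. Of the 20 genes at both ends of the ranking 7 had other tested probes, 10 probes in all, and 9 of these had the sign of the first. These are signs of means, which were as small as 0.02 for Adgrb3 and as large as -0.62 for Tpm2. Among all genes whose brightest probe had 1 sign in the 5 animals, the next probe shared it in 89 of 145 (61.4%), beside 57.7% of the 2630 genes.

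Set against day 7, no feature passed the adjusted threshold for the difference (0% of 31079), and the smallest adjusted p was 0.336 in limma. Atrx gave that smallest value, with a mean ratio of 0.32 at day 7 and a day 21 minus day 7 difference of -0.85. With arrays entered singly, a dye term and the animal as a replicate block, Atrx was the 1 feature called for the difference. Its adjusted p was 6.2e-05 in limma, which does not rest on the spread between animals alone. Pclo had 0.26 at day 7 and a difference of -0.73, and Nat10 0.07 and -0.33, each with an adjusted p of 0.922 in limma. Trem2 had 0.46 at day 7 and a difference of -0.94, also with an adjusted p of 0.922 in limma. Before adjustment 1293 features had p under 0.05 for the difference.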

How the data were processed

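Each array held 43628 spots, 2256 of them controls. The submitters' processing notes name Agilent Feature Extraction, and the file headers give its version as 9.1.3.1. The values used here were the deposited linear intensity of every spot (mean signal) and of its local background, per the file headers. The deposited log10 ratio of red over green, corrected by Feature Extraction per the file headers, was 1 alternative, and another was the authors' deposited table of log2 red over green ratios. How that table was normalized was not stated in the labels or headers. Its columns correlated with the values used here at 0.900 to 1.00 with slopes of 0.864 to 1.64, each of 20 matched its own array best, and its centring is unknown (column medians 0.00338 to 0.0153). Another 20 columns were not used.

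Signals were corrected with normexp (offset 50) and loess within arrays in limma (version 3.58.1, R 4.3.3), and files were read with the package data.table (version 1.17.8). Control spots had weight 0, outlier spots were set to missing and saturated spots kept. An animal entered only where both of its arrays had a value. Levels per channel were scaled between arrays with Aquantile after loess. The filter kept probes that 1 cell type of 1 day showed well above background in 3 or more animals, each on both arrays, and 34226 of 41012 probes passed; 3188 of the features passed through day 7 alone, and 3172 lacked a value in 1 or more day 21 animals. The brightest probe stood for a gene. RefSeq's GRCr8 table gave names through the accession for 10658 probes, through the symbol for 4647 and through an older symbol for 3885, 198 kept the file's name and 21624 had none here. No coordinates are given, since the labels and files name no genome build.

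Ratios, 1 per animal, were tested in limma (lmFit, eBayes) with both days in 1 fit with 8 residual degrees of freedom, adjusted by Benjamini-Hochberg over all features, and the code was tested on simulated data. The smallest p of an exact two-sided sign-flip test with 5 animals is 0.0625. The number of animals limits the precision. Replicate numbers name animals and pair no samples across days, and the 5 scan batches of the file headers hold both pools of each animal they contain.

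Genes were named by rule: the 10 highest and 10 lowest ratios under the conditions given with them, genes whose tested probes all had 1 sign in the 5 animals, up to 3 of smallest p from each of 38 gene lists, and the 10 of smallest p. The text gives part of those from lists, and 7 further genes that it names as chosen after their values were seen. The lists held 1622 genes, 1428 of them tested. The comparison, the lists and the rule were chosen with earlier results of these data known. Alternatives covered background correction, centring, the filter, saturation, dyes, weights, blocks, probes and left-out animals.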

Additional observations from a re-analysis of the deposited data

Results flagged for a closer look

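Dixon's test for a single extreme animal among the 5 of day 21 was run on each named gene and list. Chance alone gives about 1 flag in 20 groups that were not chosen by their values. Most named genes were chosen by these same ratios, so their flags cannot be read against that rate. Replicate 5 stood apart for Snap25 (1.94), Septin7 (-2.45), Taok3 (-1.99), Adgrb3 (1.34), Crot (1.06), Nefl (-1.11) and C1qb (-0.54). Replicate 2 stood apart for Tpm2 (-2.52), replicate 3 for Nefm (-1.06) and replicate 4 for Prp2 (-0.70). Among list medians, replicate 1 stood apart for active zone genes (0.028) and replicate 5 for sorting receptors (0.13). Values are log2 ratios of sprouting over non-sprouting signal.

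Atrx, Nat10 and Pclo had ratios below 0 in all 5 day 21 animals and above 0 in all 5 day 7 animals. Their day 21 minus day 7 differences were -0.85, -0.33 and -0.73, with adjusted p of 0.336, 0.922 and 0.922 in limma, so none passed. With the arrays entered singly, a dye term and the animal as a replicate block the difference of Atrx had an adjusted p of 6.2e-05 in limma.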

How the results depend on the processing

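Of 20 alternatives 18 left 0 features at an adjusted p under 0.05 in limma, and 2 gave 1: Neto2 with median centring in place of loess, and Atrx with the arrays entered singly and the animal as a replicate block. That last fit also held a dye term and used 1 correlation within animals, 0.50, for all features. For the difference between days, whose alternatives were added after the data were seen, the replicate block called 1 feature (Atrx, adjusted p 6.2e-05 in limma) and the other 18 alternatives run called 0. Features at an unadjusted p under 0.05, 1484 in the fit as reported, numbered 845 without background correction, 3166 with median centring, 199 with the stricter filter, 989 with day 21 animals alone, 3697 on forward arrays alone, 4263 on swapped ones, 1550 with the replicate block (866 higher and 684 lower), and 1157 to 2220 with 1 animal left out. Those higher (578) numbered 915 with median centring, 154 with the stricter filter, 1994 on forward arrays, 1845 on swapped ones, 890 with array weights, and 472 to 718 with 1 animal left out. Those lower (906) numbered 536 with Feature Extraction's ratios, 427 without background correction, 2251 with median centring, 45 with the stricter filter, 564 with day 21 animals alone, 1703 on forward arrays, 2418 on swapped ones, and 685 to 1502 with 1 animal left out, the highest without replicate 5. The share higher was 38.9% as reported, 56.2% with Feature Extraction's ratios, 49.5% without background correction, 28.9% with median centring, 77.4% with the stricter filter and 55.9% with the replicate block. The share of genes whose 2 brightest probes had 1 sign was 57.7%, 75.1% with the stricter filter and 56.7% to 60.8% with 1 animal left out. Of 74 named genes 62 kept their sign in every alternative run for them, the stricter filter leaving values for 37. With median centring the ratio turned for Cmtm3 (0.058), Gap43 (-0.045), Gja1 (-0.028), Hbb-b1 (-0.018), Plaat3 (-0.051), Rpl30 (-0.037), Rps26 (-0.054), Snap25 (-0.11), Stmn1 (-0.12), Tpt1 (-0.046) and Vcam1 (-0.023). It also turned for Npy with array weights (0.17), on forward arrays (0.024) and without replicates 3 or 5, and for Snap25 (-0.12) and Hbb-b1 (-0.25) with array weights. With 1 animal left out Npy ranged from -0.40 to 0.44, Snap25 from -0.33 to 0.29 and Hbb-b1 from -0.18 to 0.42. The cause of these changes was not tested. Of 757 list medians under alternatives 73 moved by more than the SD of the animals' medians. Signal over background limits dim probes, most of all in the sprouting channel of the replicate 4 dye-swap array.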
